A study of Rattus norvegicus with 54 samples.

Results

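The genes described here are 9 genes of antigen presentation and interferon signalling, Cd74, B2m, Tap1, Tap2, Psmb8, Psmb9, Irf9, Irf7 and Irf1. They were chosen by symbol: every probe set that the platform annotation pairs with 1 of these symbols was taken, which gave 11 of the 15866 probe sets on the array, for 9 of the 10959 gene symbols it names. B2m and Tap1 had 2 probe sets each and the other genes 1 each. In adipose tissue and in liver 10 of the 11 probe sets had a mean signal high enough to be tested, and in muscle 7 of the 11. The second Tap1 probe set (1375379_at) was below that limit in all 3 tissues, with signals of 8.1 to 222.3 over all arrays, so Tap1 below means probe set 1388149_at.

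The RNA was measured on Affymetrix rat expression arrays in epididymal adipose tissue, liver and gastrocnemius muscle of male Zucker rats. In each tissue 4 groups of obese rats (fa/fa) had been treated with pioglitazone, rosiglitazone, troglitazone or AG035029, 1 group of obese rats (fa/fa) was untreated and fed normal chow, and 1 group of lean rats (fa/+) was untreated and fed normal chow. All treated rats were thus obese fa/fa males, and the lean rats carried 1 copy of the fa allele of the leptin receptor gene. The study asked how 4 PPARgamma ligands act across tissues. Pioglitazone, rosiglitazone and troglitazone are thiazolidinediones, insulin-sensitising drugs that bind the nuclear receptor PPARgamma, and AG035029 is given by its code name alone. Each group had 3 arrays in each tissue, and each array was probed with pooled RNA of 2 rats, so that 3 arrays stand for 6 rats. The labels used here give no dose, duration or age, so a difference between ligands can also be one of dose. P-values measure the spread between these arrays only.

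Peptides from inside the cell are cut by the proteasome, carried into the endoplasmic reticulum by the Tap1–Tap2 transporter and loaded on MHC class I molecules, whose light chain is B2m. Psmb8 and Psmb9 are catalytic subunits that replace constitutive ones in the immunoproteasome. Peptides taken up from outside are presented by MHC class II molecules, which are assembled on Cd74, the invariant chain, in macrophages, dendritic cells and B cells. Interferons raise most of these genes: Irf9 is a DNA-binding subunit of the factor that answers type I interferon, Irf7 drives the type I interferon genes themselves, and Irf1 is induced by interferon-gamma and acts on the promoters of class I genes. In adipose tissue of obese animals macrophages are a known source of such transcripts.

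Promoter windows of RefSeq (build GRCr8, 250 bases before to 50 bases after the start site) were available for 9 of the 9 genes, and the matches are shown because they are the stretches that interferon-activated factors can recognise. The core of the interferon-stimulated response element, searched on both strands as GAAANNGAAA, had a match in 5 of the 9 windows, against 3.92% of all 33469 windows. The gamma-activated site, searched as TTCNNNGAA, which reads the same on both strands, had a match in 3 of the 9, against 8.87% of all windows. The inverted CCAAT box ATTGG, part of MHC class II type promoters, had a match in 5 of the 9 on either strand, among them Cd74, against 37.5% of all windows. The 3 motifs did not overlap each other in these windows. Sequences run 5′ to 3′ on the gene's own strand, with the matched letters in capitals, and a match is a description of letters and not a tested site.
B2m (response element, chr3:129549170-129549199, + strand, match from base -150): ataagaacatGAAACTGAAAatgggaaagt
Tap1 (response element, chr20:4668645-4668674, - strand, match from base -121): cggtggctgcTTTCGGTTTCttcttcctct
Tap2 (response element, chr20:4652318-4652347, - strand, match from base -41): gcagcgaagtGAAAGCGAAAgcccgggacc
Psmb8 (response element, chr20:4657016-4657045, - strand, match from base -4): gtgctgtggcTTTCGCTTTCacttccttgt
Irf7 (response element, chr1:205800073-205800102, - strand, match from base -69): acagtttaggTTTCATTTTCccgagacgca
Irf9 (gamma-activated site, chr15:33065727-33065755, + strand, match from base -99): accacgtgatTTCTAGGAActgcacctcc
Irf1 (gamma-activated site, chr10:38417783-38417811, + strand, match from base -142): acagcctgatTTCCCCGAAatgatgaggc
Psmb8 also had a gamma-activated match, at base -245. Tap2, Psmb8, Tap1 and Psmb9 are 4 adjacent genes on chromosome 20 between the class II genes RT1-DOb and RT1-DMb, and the start sites of Tap1 and Psmb9 lie 457 bases apart on opposite strands.

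Signals had been scaled so that the trimmed mean of each array was 500.1 or 500.2, and the median signal per array was 205.3 to 247.6 for adipose tissue, 200.8 to 248.4 for liver and 190.8 to 232.5 for muscle. Arrays of a group scattered least in adipose tissue: the median residual SD of a probe set was 0.20 there, against 0.32 for liver and 0.30 for muscle (log2 scale). Hepatocyte genes summed to 188000 to 342100 on liver arrays, and myofibre genes to 244400 to 498500 on muscle arrays. The 5 adipocyte genes summed to 31510 to 46830 on adipose arrays, but also to 3334 to 32550 on muscle arrays, so that the highest muscle array, of the troglitazone group, exceeded the lowest adipose one. On 1 liver array of the troglitazone group the myofibre genes summed to 26750. In adipose tissue 2 arrays stood apart by their residual spread, rosiglitazone replicate 2 and AG035029 replicate 1.

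Among lean rats, each of the 7 probe sets bright enough for testing in muscle had a higher signal in adipose tissue than in muscle, by 0.78 (B2m, 1367595_s_at) to 2.46 (B2m, 1371440_at) on the log2 scale. In this joint fit of 11532 probe sets, which passed the limit in at least 1 tissue, 56.3% differed and 32.2% were higher in adipose tissue. The members counted passed it in both tissues compared, so counts and shares rest on different selections, here and in the other tissue pairs. The peptide transporter was dim in muscle, and its muscle values are given without a fold: Tap1 averaged a signal of 280.1 ± 38.2 in adipose tissue and 255.5 ± 117.5 in liver, against 23.0 ± 13.2 in muscle (SD, n = 3 each), and Tap2 averaged 367.4 ± 10.8 in adipose tissue and 286.8 ± 75.8 in liver, against 31.6 ± 9.1 in muscle. In muscle Tap1, Tap2 and Psmb9 lay under the limit for testing (a mean signal of 153.5, the 40th percentile), Psmb9 with a mean of 152.5 just under it. These 3 entered the joint fit through adipose tissue and liver, where they are higher, so their calls against muscle are not counted.

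Cd74, the class II invariant chain, averaged 6667 ± 521 in lean adipose tissue, 1743 ± 456 in lean liver and 2467 ± 192 in lean muscle. It was higher in adipose tissue than in liver by 1.95 ± 0.22 (SE) and its liver minus muscle difference was -0.53 ± 0.22 (adjusted p = 0.0354, limma). Between adipose tissue and liver, 6 of the 10 probe sets differed, 5 of them higher in adipose tissue, against 54.4% of all probe sets and 32.1% higher. These were Cd74, 1 probe set of B2m (1371440_at, 0.78 ± 0.15), Irf9 (0.98 ± 0.20), Irf7 (1.22 ± 0.33) and Irf1 (1.05 ± 0.23). The other B2m probe set (1367595_s_at) went the other way, with 13010 ± 1346 in adipose tissue and 32210 ± 2566 in liver (-1.31 ± 0.18). B2m therefore had no single order between adipose tissue and liver on this array. For Tap1, Tap2, Psmb8 and Psmb9 the adipose and liver levels did not differ beyond their spread. Between liver and muscle 5 of the 7 differed, 4 of them higher in liver, against 54.6% of all probe sets and 25.4% higher. Irf9 (0.24, adjusted p = 0.306) and Irf7 (0.72, adjusted p = 0.0617) did not pass.

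**Figure D1:**
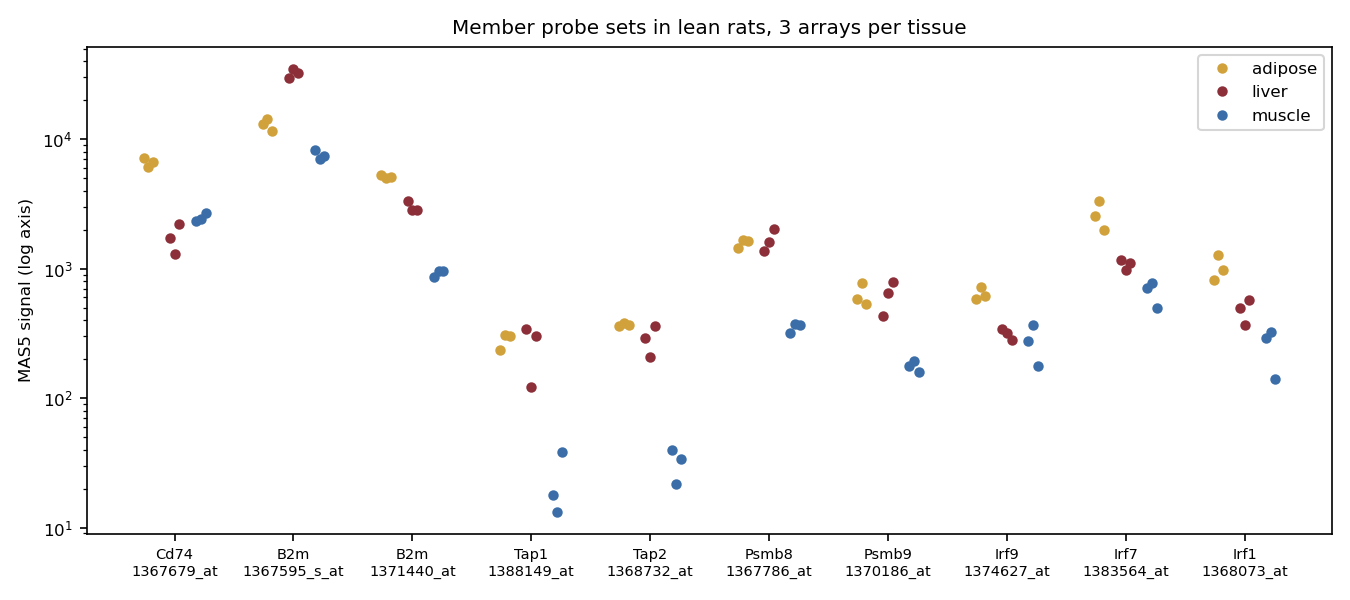
Signal of each tested probe set in lean rats on a log axis, by tissue (points are arrays, 3 per tissue). Tap1 and Tap2 average 255.5 or more in adipose tissue and liver, against 23.0 and 31.6 in muscle, and the 2 B2m probe sets disagree on the order of adipose tissue and liver.

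Adipose tissue of untreated obese rats had a lower level of Irf9 than that of lean rats. Tap1, a dim probe set near the limit for testing, was also called lower, while Cd74 did not pass the test and lay on the other side. Irf9, the interferon-factor subunit, had signals of 468.8, 395.7 and 372 on obese arrays, against 586.2, 715 and 612.6 on lean arrays. All 3 obese arrays lay below all 3 lean arrays, and Irf9 fell by 0.61 ± 0.12 on the log2 scale (SE; adjusted p = 0.00395, limma over 9519 probe sets). Tap1, the transporter subunit, had 224.7, 114.7 and 122.4 on obese arrays, against 236.1, 305 and 299.3 on lean arrays. The groups did not overlap, although the first obese array lay just under the lowest lean one, and Tap1 fell by 0.83 ± 0.22 (adjusted p = 0.0282). Tap1 passed the limit for testing (153) with an adipose mean of 173.8. Without the lean arrays, where it is highest, that mean was 152.6, just under this limit, so the choice of probe sets favoured a call against lean rats. Computed without the lean arrays too, the limit was 151.5, which Tap1 passed narrowly. With no limit on signal its adjusted p was 0.0495. In the same contrast 2 of the 10 probe sets were called, both lower, against 6.08% of all probe sets called and 2.9% called lower. Tap1 apart, the count was 1 of 9. In all, 4 of the 10 had no overlap between obese and lean arrays, against 28% of all probe sets.

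The call for Irf9 held in every one of the 16 alternative settings tried, with values of -0.70 to -0.53. Tap1 was less firm: without obese replicate 1 its value was -1.11 (adjusted p = 0.00416), and its call ended without obese replicate 2 (0.12) or 3 (0.125), without lean replicate 2 (0.0981) or 3 (0.0952), and when only the obese and lean arrays were fitted (0.0687).

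Irf7, the regulator of the type I interferon genes, had 2127, 1177 and 914.6 on obese arrays, against 2535, 3304 and 1971 on lean arrays. The highest obese array lay above the lowest lean one, and the difference of -0.94 ± 0.30 did not pass (adjusted p = 0.072), although it did in 4 of 16 alternative settings (adjusted p of 0.0106 to 0.278 over them). Obese replicate 1 was the highest obese array for Tap1, Tap2, Psmb8, Irf9, Irf7, Irf1 and both probe sets of B2m. Without that array the Irf7 difference was -1.28 (adjusted p = 0.0171) and 3 of the 10 probe sets were called in place of 2.

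B2m on probe set 1371440_at had 4422, 3696 and 4093 on obese arrays, against 5241, 5033 and 5142 on lean arrays. These groups did not overlap either, and the difference of -0.34 did not pass (adjusted p = 0.0608), although it did in 4 of 16 alternative settings (0.00482 to 0.207). The other B2m probe set differed by -0.10 (adjusted p = 0.744). Cd74 was the 1 probe set with no overlap in the other direction: it had 8048, 7973 and 8238 on obese arrays, against 7172, 6132 and 6697 on lean arrays, a difference of 0.28 that did not pass (adjusted p = 0.294). Tap2 (-0.05), Psmb8 (-0.25), Psmb9 (-0.24) and Irf1 (-0.34) had adjusted p of 0.29 to 0.876. Over the 10 probe sets the median difference was -0.29, against -0.02 over all probe sets.

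**Figure D2:**
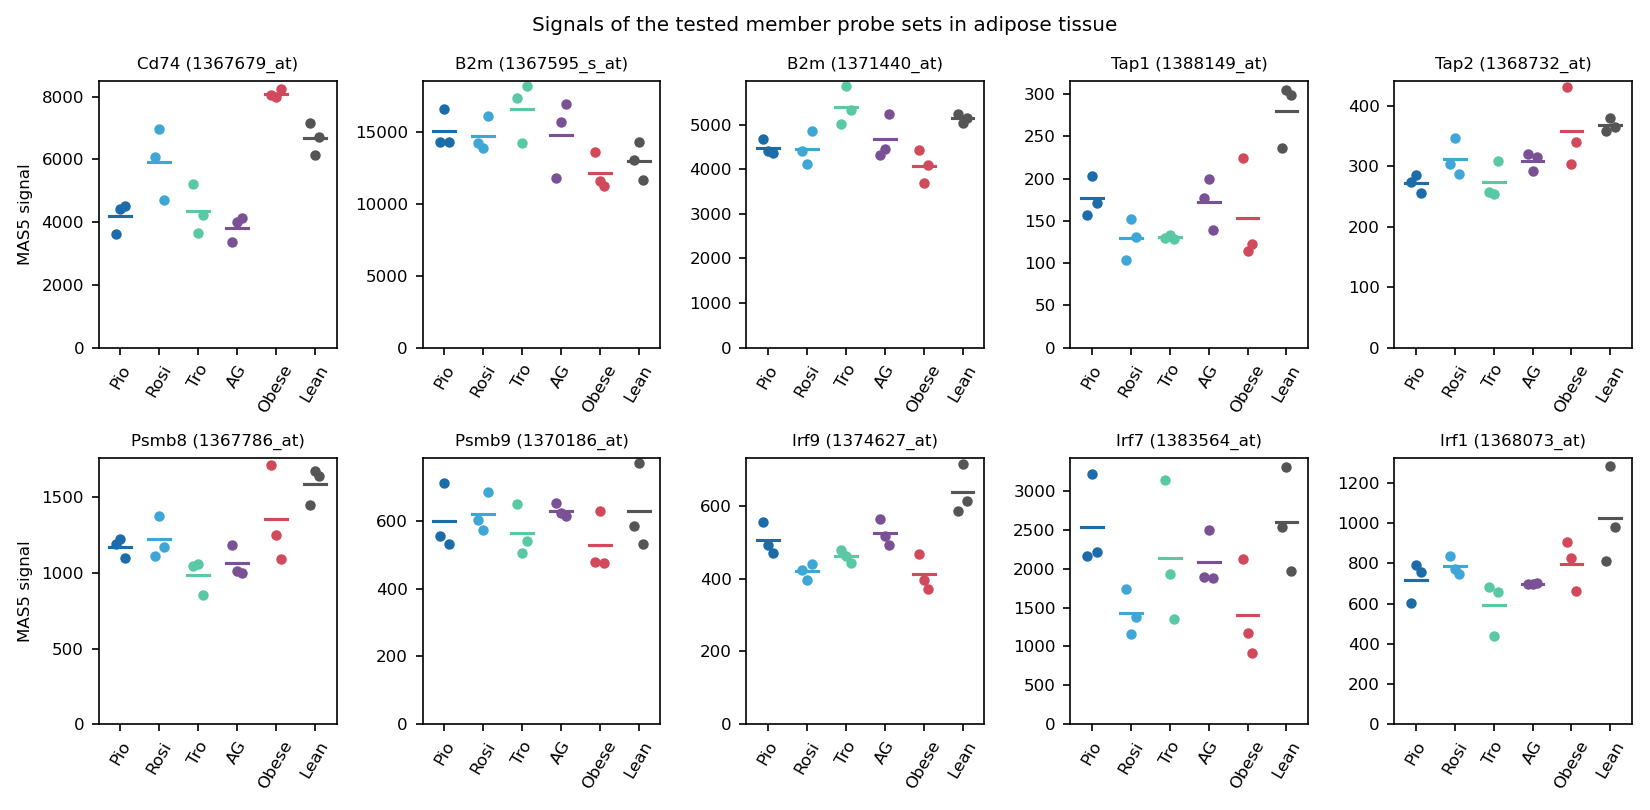
Signal of each tested probe set on each of the 18 adipose arrays, by group, on linear axes that start at 0 (points are arrays, 3 per group, bars are means, and Pio, Rosi, Tro and AG stand for pioglitazone, rosiglitazone, troglitazone and AG035029). Cd74 lies at 6964 or less on all ligand arrays and at 7973 to 8238 on untreated obese arrays, while Irf9 and Tap1 are highest on lean arrays.

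Other genes of the same pathways were counted from lists. Of the 29 tested probe sets of interferon-response genes (26 genes), 11 fell and 0 rose in obese relative to lean adipose tissue, with a median of -0.56. The smallest adjusted p belonged to Mx2, an antiviral GTPase, at -1.08 ± 0.19 (0.00234), although a second Mx2 probe set at -0.74 did not pass (0.26). Parp9, a member of the ADP-ribosyltransferase family, fell by 0.77 (adjusted p = 0.00277), and the interferon-induced GTPases Irgm2 and Gbp2 fell by 0.66 (0.0107) and 0.64 (0.0139). Stat2, the partner of Irf9, fell by 0.50 (0.0207). The count was 3 to 10 when 1 obese or lean array was left out, lowest without obese replicate 3. Markers of other cell types differed in the same contrast: both tested probe sets of albumin were lower (-2.16 and -1.57), as were the adipocyte genes Cfd (-0.61) and Lipe (-0.54), and Lep was higher (1.42). Of 3 myofibre probe sets (median -0.87) and 4 endothelial ones (median -0.49) 0 passed by limma, with 2 of each at an unadjusted p under 0.05. Myofibre genes summed to 638 to 763.2 on obese arrays and 588.5 to 2355 on lean arrays, and endothelial genes to 2417 to 2583 on obese arrays and 2934 to 4413 on lean arrays. The part of these cell types in the interferon-response values was not tested.

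Of 20 tested probe sets for MHC class I and peptide loading, 5 fell and 0 rose, and these were for RT1-CE16 (-1.16, adjusted p = 0.00507), RT1-S3 on 3 of its 4 probe sets (-0.81 for the smallest adjusted p, 0.00521) and RT1-CE5 (-0.65, 0.0254). Probe sets of RT1 genes may detect more than 1 of these closely related genes. The count was 2 to 5 with 1 obese or lean array left out, lowest without obese replicate 3. MHC class II went the other way, with 3 of 11 probe sets higher and 0 lower: RT1-DMb (0.58, adjusted p = 0.00709) and RT1-DMa (0.60, 0.0334), which exchange peptides on class II molecules, and Ifi30 (0.46, 0.0242), a lysosomal thiol reductase. That count was 1 to 2 with 1 obese or lean array left out. Of the 4 other inducible proteasome genes Pomp, the assembly chaperone of the proteasome, rose by 0.60 (0.00315) and the others did not pass. Irf8, a factor of macrophages and dendritic cells, rose by 1.17 ± 0.17 (0.000479), the 1 call among 8 probe sets of interferon receptors, kinases and other interferon regulatory factors. The constitutive subunits Psmb5 and Psmb7 gave 0 calls by limma, with 1 of the 2 at an unadjusted p under 0.05.

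Macrophage markers moved with the class II genes. Of 13 tested macrophage probe sets, 6 were higher and 0 lower in obese than in lean adipose tissue, among them Cd68 (1.33 ± 0.16), Laptm5 (1.19), Fcer1g (0.79) and Tyrobp (0.74). The summed macrophage signal was 18980 to 32650 on ligand arrays, 36480 to 40120 on untreated obese arrays and 23090 to 28690 on lean arrays, with none of the 13 probe sets averaging under 50 in any of the adipose groups. The obese arrays thus lay above all others. The part of macrophage number in the Cd74 and class II values was not tested, and in bulk tissue fewer cells of a type and less RNA per cell cannot be told apart.

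Treatment with the ligands brought 1 large change among these genes in adipose tissue: Cd74 was lower in the treated obese rats. Its signal was 3364 at the lowest, 4322 at the median and 6964 at the highest over 12 ligand arrays (mean 4572 ± 1058, SD), against 8048, 7973 and 8238 on untreated obese arrays (mean 8086 ± 137, n = 3). No ligand array reached the obese ones, and Cd74 fell by 0.85 ± 0.12 (SE; adjusted p = 5.44e-05). The value stayed between -1.04 and -0.77 and the call held in all 25 alternative settings. B2m on probe set 1367595_s_at had 11840 at the lowest, 15010 at the median and 18190 at the highest over the ligand arrays, against 13600, 11640 and 11270 on obese arrays. These overlapped, and B2m rose by 0.33 ± 0.11 (adjusted p = 0.0366). That call ended in 7 of the 15 fits that left out 1 array, with adjusted p of 0.00828 to 0.164 over them, for example without obese replicate 2 (0.134) or 3 (0.164). It also ended with quantile normalization, where the difference was 0.11 (0.173), and with no limit on signal (0.098). The second B2m probe set differed by 0.22 (adjusted p = 0.0682).

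These 2 calls among 10 probe sets compare with 20.9% of all probe sets called in the same contrast, so the share was that of the array as a whole. Cd74 was the 1 of the 10 without overlap, against 11.7% of all. The other 8 probe sets did not pass: Irf7 differed by 0.56 (adjusted p = 0.102), Irf9 by 0.20 (0.122), Psmb9 by 0.19 (0.284), Tap1 by 0.02 (0.95), Irf1 by -0.19 (0.359), Psmb8 by -0.26 (0.115) and Tap2 by -0.27 (0.0743). The obese minus lean and the ligand minus obese contrasts share the 3 untreated obese arrays, so an array that was high or low by chance moves both in opposite directions. Leaving out obese replicate 1, Irf7 differed by 0.90 between ligand and obese arrays (adjusted p = 0.0215).

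Among the pathway lists, class II genes fell with Cd74 under the ligands: 4 of 11 probe sets were lower and 0 higher, with a median of -0.60. Of all 9519 probe sets tested in this contrast 1118 were lower and 867 higher, the background for the list counts here and below. RT1-Db1, a class II beta chain, fell by 1.16 ± 0.13 (adjusted p = 6.92e-06), RT1-DMb by 0.50 (0.00111), RT1-DMa by 0.60 (0.00254) and the alpha chain RT1-Da by 0.72 (0.00652). MHC class I and peptide loading gave 0 calls in 20 probe sets by limma, with 2 at an unadjusted p under 0.05. Of the 29 interferon-response probe sets 1 rose, Ifi27l2b (0.67, adjusted p = 0.0185), and 2 fell, Ifitm1 (-0.90, 8.89e-05), an antiviral membrane protein, and 1 of the 2 probe sets of the RNA-editing enzyme Adar (-0.31, 0.0322), with a list median of 0.22. By limma 9 of the 29 had an unadjusted p under 0.05. Without the 2 adipose arrays that stood apart, 4 of the 29 were called higher and 2 lower, so the number that rose is not settled. The constitutive proteasome subunits Psmb5 (0.32, 0.0184) and Psmb7 (0.25, 0.0266) both rose, and the 4 other inducible proteasome genes gave 0 calls by limma, with 2 at an unadjusted p under 0.05. Irf8 fell by 0.97 ± 0.14 (7.98e-05).

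Macrophage markers fell beside Cd74: 9 of 13 probe sets were lower and 0 higher under the ligands, with Cd68 at -0.85 (adjusted p = 0.000157), Tyrobp at -0.73, Fcer1g at -0.65 and Cd53 at -0.97. Cd37, the 1 tested gene of the B cell list, fell by 1.03 ± 0.18. Of 2 dendritic cell probe sets 1 was lower, Cd83, by 0.56. Of 4 T and NK cell probe sets (median -0.08) 1 was lower, Cd4, also a macrophage gene, by 0.50. Without the 2 adipose arrays that stood apart, 0 of these 4 were called. The 2 probe sets of the B cell list summed to 147.8 to 392.2 on ligand arrays, 395.9 to 742.6 on obese arrays and 434.7 to 493 on lean arrays. Albumin, a liver gene, moved the other way in adipose tissue (4.43 and 4.45 on its 2 probe sets). The hepatocyte genes summed to 4234 to 15200 on ligand arrays, 670.1 to 973.7 on obese arrays and 1565 to 3182 on lean arrays. Only 3 probe sets of 2 hepatocyte genes were tested there, and the 1 beside albumin was not called. Of the 8 hepatocyte probe sets on the array, 2 to 4 averaged under 50 in each adipose group. Of 5 adipocyte probe sets 2 were higher and 1 lower, and of 4 endothelial ones 1 was higher and 0 lower. The part of these cell types in the values of Cd74 and B2m was not tested.

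Each ligand was then set against the same untreated obese arrays. Cd74 had 3611, 4432 and 4516 under pioglitazone, and fell by 0.95 ± 0.15 (adjusted p = 0.000337). Under troglitazone it had 5201, 3649 and 4211 and fell by 0.91 ± 0.15 (0.000389), and under AG035029 it had 3364, 3993 and 4128 and fell by 1.08 ± 0.15 (0.000105). Under rosiglitazone it had 6073, 6964 and 4718, all below the obese arrays, and the difference of -0.47 ± 0.15 did not pass (0.074). Without rosiglitazone replicate 2, the array with the widest spread, that difference was -0.59 (0.0238).

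B2m was called under troglitazone on both probe sets. The probe set 1367595_s_at had 17400, 14220 and 18190 under troglitazone, against 13600, 11640 and 11270 in untreated obese rats, and rose by 0.45 ± 0.14 (adjusted p = 0.0303). The probe set 1371440_at had 5006, 5856 and 5315, against 4422, 3696 and 4093, and rose by 0.41 ± 0.10 (0.0116). Neither overlapped the obese arrays, and the calls ended in 4 and 2 of the 6 fits that left out a troglitazone or obese array. With quantile normalization neither passed, at 0.11 (0.346) and 0.20 (0.115), and with no limit on signal the first did not (0.0856). Irf7 under pioglitazone had 2161, 3213 and 2220, above all 3 obese arrays, with a difference of 0.91 ± 0.30 that did not pass (0.051), although it did in 6 of 16 alternative settings (0.00559 to 0.205). Psmb8 under troglitazone (-0.43, 0.053) and Irf9 under AG035029 (0.34, 0.0561) also lay just outside the threshold, and each passed in 4 of 16 alternative settings.

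By ligand, 1 of 10 probe sets was called under pioglitazone, where 14.7% of all probe sets were, 0 under rosiglitazone (5.56%), 3 under troglitazone (17%) and 1 under AG035029 (15.2%). Rosiglitazone had 1 probe set at an unadjusted p under 0.05 by limma, Cd74, against 19.4% of all. A call under 1 ligand and not under another is no difference between them, and the 6 differences between ligands were tested themselves. Over 60 tests of the 10 probe sets in adipose tissue, 0 passed in limma after adjustment over all probe sets and pairs, against 0.00875% of all such tests, and 9 had an unadjusted p under 0.05, against 7.52% of all. The F-test over the 4 ligand groups called 0 of the 10, against 0.0315%, with 1 at an unadjusted p under 0.05, against 9.31%. That 1 was Cd74 (adjusted p = 0.363), whose widest pair was rosiglitazone over AG035029, at 0.61 with a 95% interval of 0.30 to 0.92 (adjusted p = 0.331). Before adjustment, the 95% interval of a ligand pair extended 0.22 to 0.63 to either side of these probe sets' differences for adipose tissue, 0.40 to 0.94 for liver and 0.33 to 0.79 for muscle. By mean signal the adipose order of Cd74 was untreated obese (8086), lean (6667), rosiglitazone (5919), troglitazone (4354), pioglitazone (4186) and AG035029 (3829), with no passing test between obese and lean or between any of the ligand groups.

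Set against lean rats, ligand-treated obese rats had lower levels of 6 of the 10 probe sets and a higher level of 0 in adipose tissue, where 35.6% of all probe sets were called and 21.1% were lower. The transporter and immunoproteasome genes Tap1, Tap2 and Psmb8 and the factor Irf9 had ligand arrays entirely below the lean arrays, 4 of 10 without overlap, against 19.7% of all probe sets. Tap1 had 104.1 at the lowest, 146 at the median and 203 at the highest over the ligand arrays, against 236.1, 305 and 299.3 on lean arrays, and fell by 0.81 (adjusted p = 0.00137). The limit given above for Tap1, whose mean without the lean arrays is under the limit for testing, holds here too, and with no limit on signal its adjusted p was 0.00294. Psmb8 had 853.1, 1106 and 1378 at these points, against 1449, 1671 and 1642 on lean arrays, and fell by 0.51 (0.00231). Irf9 had 395.2, 474.1 and 565, against 586.2, 715 and 612.6, and fell by 0.40 (0.00246).

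Cd74 (-0.57, adjusted p = 0.00101), Irf1 (-0.53, 0.00677) and Tap2 (-0.32, 0.0238) were lower as well. The Tap2 call ended in 3 and the Irf1 call in 1 of the 15 fits without 1 array. When arrays were centred on their medians in place of their trimmed means the median of all probe sets moved by 0.11, Tap2 no longer passed (-0.21, 0.139) and 1 probe set of B2m rose by 0.34 (0.0335), which gave 5 lower and 1 higher. With quantile normalization Tap2 did not pass either (-0.21, 0.131), while the other B2m probe set (1371440_at) passed as lower, at -0.35 (0.000588), against -0.12 (0.27) without it. B2m thus had no settled direction against lean rats. Irf7 (-0.38, 0.234), Psmb9 and both B2m probe sets did not pass. Of the interferon-response list, 15 of 29 probe sets were lower and 0 higher, of MHC class I and peptide loading 8 of 20 lower and 1 higher (Canx), of class II 1 of 11 lower (RT1-Db1) and 1 higher (Ifi30), and of the macrophage list 2 of 13 higher (Laptm5 and Cd68). Other cell-type markers differed here too: 3 of 3 myofibre probe sets were lower (Acta1, Ckm and Myl1, median -0.84), Pecam1 and Tie1 of the endothelial list were lower and Kdr higher, and Cd37 was lower (-0.70). Both albumin probe sets (2.27 and 2.89) and Fabp4 (0.38) were higher. Their part in the values of the interferon and class I genes was not tested.

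**Figure D3:**
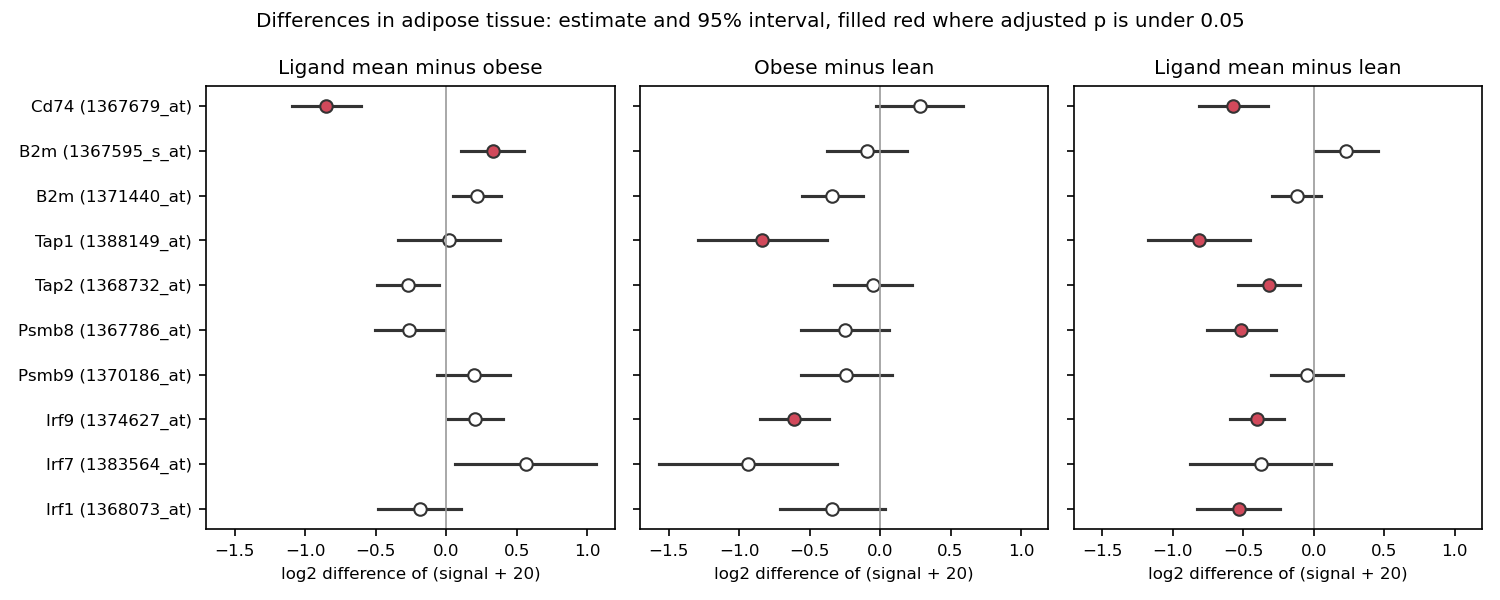
Differences of the 10 tested probe sets in adipose tissue on the log2 scale for ligand mean minus obese, obese minus lean and ligand mean minus lean (points, with 95% intervals). Filled points passed an adjusted p of 0.05. Cd74 lies at -0.85 under the ligands, and Irf9 and Tap1 lie at -0.61 and -0.83 in obese relative to lean rats.

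**Figure D4:**
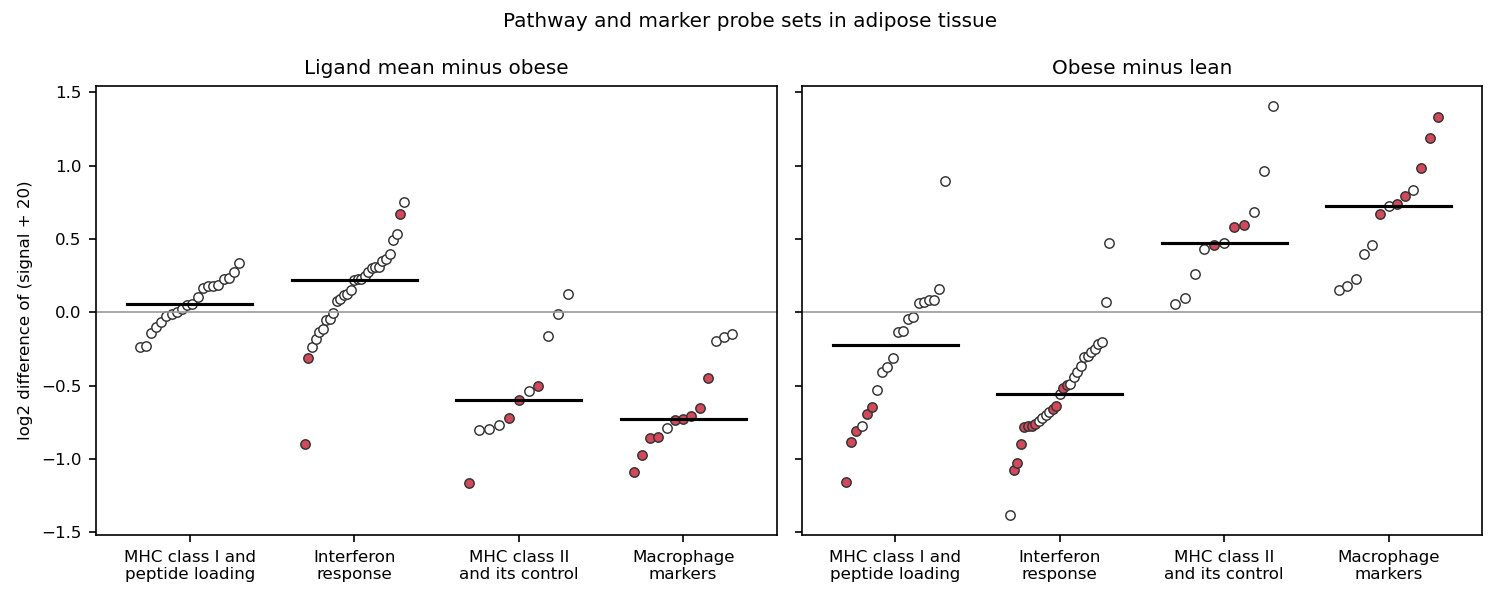
Differences of single probe sets of 4 lists (MHC class I, interferon response, MHC class II, macrophage) in adipose tissue on the log2 scale (points, red where the adjusted p was under 0.05), with list medians (bars). Interferon-response genes have a median of -0.56 in obese minus lean, and class II genes a median of -0.60 in ligand mean minus obese.

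In liver 0 of the 10 probe sets passed by limma in any contrast between groups. The share of all probe sets called was 0.672% for obese minus lean, 0.504% for ligand mean minus obese and 3.2% for ligand mean minus lean, and 0, 3 and 1 of the 10 had an unadjusted p under 0.05, against 9.82%, 10.6% and 15.5% of all. The 3 in ligand mean minus obese all had negative differences. Psmb9, the immunoproteasome subunit, had 203.4 at the lowest, 490.1 at the median and 741 at the highest over ligand arrays, against 615.4, 784.6 and 960.8 on obese arrays, a difference of -0.84 ± 0.29 (adjusted p = 0.244). Cd74 differed by -0.52 (0.345) and Tap2 by -0.53 (0.332). Under single ligands in liver 0 of the 10 passed by limma, where 0.021% of all probe sets did under pioglitazone, 0.063% under rosiglitazone, 0.672% under troglitazone and 0.2% under AG035029. At an unadjusted p under 0.05 there were 1 under pioglitazone (7% of all), 3 under rosiglitazone (9.39%), 4 under troglitazone (9.94%) and 0 under AG035029 (9.42%).

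Cd74 in liver had 601.4 at the lowest, 1066 at the median and 1508 at the highest over ligand arrays, against 1736, 1290 and 2203 on lean arrays. The difference of -0.69 did not pass (adjusted p = 0.0771). It passed without rosiglitazone replicate 1 (-0.75, 0.0387) or replicate 2 (-0.59, 0.0495), and with array weights (0.0283). The summed macrophage signal in liver was 6656 to 11360 on ligand arrays, 8100 to 10190 on obese arrays and 9929 to 12250 on lean arrays. Of 11 tested macrophage probe sets, 1 was called lower and 0 higher in ligand-treated relative to lean liver. By limma 2 of the 11 had an unadjusted p under 0.05. Irf7 in liver had 1368, 1500 and 1501 under pioglitazone and 690.2, 761.4 and 1063 under rosiglitazone, groups that did not overlap, and its F-test over the ligands did not pass (adjusted p = 0.593). Over the 60 pairwise tests in liver 0 passed by limma (0.00175% of all) and 7 had an unadjusted p under 0.05 (5.67%). The F-test called 0 of 10 (0.0105%), with Irf7 the 1 at an unadjusted p under 0.05 (6.38%). Among the lists, interferon response, class I and class II gave 0 calls by limma in liver in the 3 contrasts. In obese minus lean 6 of 30, 1 of 19 and 1 of 10 of their probe sets had an unadjusted p under 0.05, in ligand mean minus obese 6, 4 and 1, and in ligand mean minus lean 2, 3 and 2. Tyk2, a kinase of the type I interferon receptor, rose in ligand-treated relative to lean rats (0.99 ± 0.18, 0.00233).

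In muscle 7 probe sets were tested, and 0 of them passed by limma in obese minus lean, ligand mean minus obese or ligand mean minus lean, where 0.021%, 0.252% and 1.11% of all probe sets did. At an unadjusted p under 0.05 there were 0, 3 and 2 of the 7, against 4.84%, 7.15% and 11.2% of all. In ligand mean minus obese these were Cd74 (-0.34, adjusted p = 0.66) and B2m on 1367595_s_at (0.455, 0.303) and 1371440_at (0.40, 0.385). In ligand mean minus lean they were Cd74 (-0.535, 0.0977) and B2m on 1371440_at (0.29, 0.397). All ligand arrays of Cd74 lay below the lean ones, and with array weights it passed there (0.0386). Under single ligands B2m was called on 1 probe set each for pioglitazone and troglitazone. Under pioglitazone the probe set 1371440_at had 1456, 1250 and 1796, against 745.9, 906.9 and 913.7 in untreated obese rats, and rose by 0.79 ± 0.16 (adjusted p = 0.0373), where 0.231% of all probe sets were called. Under troglitazone the probe set 1367595_s_at had 13210, 12220 and 7759, against 5575, 6232 and 6622, and rose by 0.81 ± 0.17 (0.0273), where 0.756% were called. No treated array of these pairs overlapped the obese ones.

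The other B2m probe set did not pass in either case, at 0.57 under pioglitazone (adjusted p = 0.408) and 0.66 under troglitazone (0.0572). On 1371440_at the arrays of rosiglitazone (857, 879.5 and 905.8), AG035029 (824.3, 946.4 and 987.7) and lean rats (853.6, 954.3 and 957.6) lay among or just above the obese ones, and under these ligands 0 of the 7 passed (0.0315% and 0.116% of all called, with 0 and 1 of the 7 at an unadjusted p under 0.05 by limma, against 6.74% and 6.78%). The B2m calls ended in 5 and 4 of the 6 fits that left out 1 array (adjusted p up to 0.335 and 0.175), and when only the groups compared were fitted (0.248 and 0.244). The troglitazone call also ended with quantile normalization (0.094) and array weights (0.0515).

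Irf7 in muscle had 973.4, 1009 and 1130 under pioglitazone, 358.5, 237.9 and 306 under rosiglitazone, 1567, 316.6 and 611.1 under troglitazone and 707.2, 1088 and 583.8 under AG035029, against 634.6, 328.9 and 438.3 in untreated obese and 710, 773.9 and 492 in lean rats. The pioglitazone arrays were above all obese and lean arrays and above all rosiglitazone arrays, while the troglitazone arrays spanned nearly the whole range. Pioglitazone over obese was 1.16 and did not pass (adjusted p = 0.539). Pioglitazone over rosiglitazone was 1.74 with a 95% interval of 0.94 to 2.53, and rosiglitazone minus troglitazone was -0.80 (-1.16 to -0.44) for B2m on 1367595_s_at. Pioglitazone minus rosiglitazone was 0.74 (0.41 to 1.07) for B2m on 1371440_at. After adjustment over all pairs and probe sets each had an adjusted p = 0.212. By limma 0 of 42 such tests passed (0% of all), and 11 had an unadjusted p under 0.05 (8.19%). The F-test among ligands called 0 of 7 (0%), with both B2m probe sets and Irf7, 3 of 7, at an unadjusted p under 0.05 (9.73%).

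**Figure D5:**
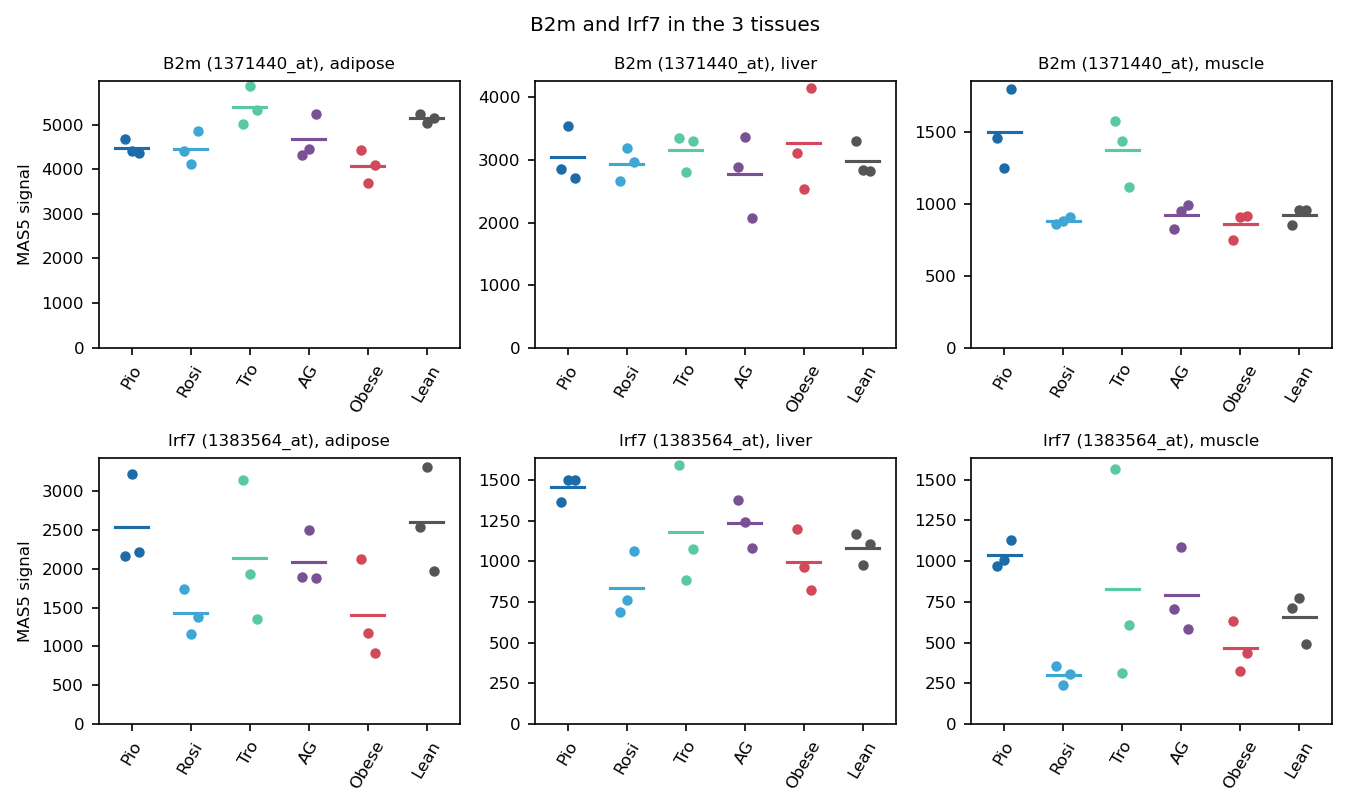
Signal of B2m (1371440_at) and Irf7 on each array of adipose tissue, liver and muscle, by group, on linear axes that start at 0 (points are arrays, 3 per group, bars are means, and ligand names are shortened to Pio, Rosi, Tro and AG). In muscle B2m reaches 1250 to 1796 under pioglitazone against 745.9 to 913.7 in untreated obese rats, and Irf7 under troglitazone runs from 316.6 to 1567.

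Adipocyte genes also differed between the muscle groups. They summed to 12520 to 23290 on pioglitazone arrays, 8528 to 15750 on rosiglitazone arrays, 15550 to 32550 on troglitazone arrays and 10420 to 20680 on AG035029 arrays, against 3334 to 5971 on obese and 3437 to 3908 on lean arrays. Of 4 tested adipocyte probe sets 1 was called in ligand mean minus obese, Fabp4, a fatty acid carrier, at 2.03 ± 0.26 (adjusted p = 0.000283), and up to 2 of the 5 on the array averaged under 50 in a group. The part of adipose tissue in the B2m and Irf7 signals of muscle was not tested.

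Whether an effect differed between tissues was tested in the joint fit. For obese minus lean 0 of the 10 probe sets differed between the 3 tissues by limma's F-test, against 0.876% of all, with Irf9 the 1 at an unadjusted p under 0.05 (adjusted p = 0.366), against 11.1% of all. The adipose calls for Irf9 and Tap1 are therefore not shown to be particular to adipose tissue. For Tap1 the test could hardly decide this, because its muscle signals (9.6 to 39.7) lay under the limit for testing. The Tap1 effect in adipose tissue minus that in liver was -1.05 ± 0.53 (SE). For ligand mean minus obese 1 of the 10 differed, against 4.94% of all: Tap2 (F = 12.8, adjusted p = 0.00328). Cd74 did not differ by this test (adjusted p = 0.426), although it did with quantile normalization (0.00846). Its fall under the ligands is therefore not shown to be particular to adipose tissue. Tap2 entered this fit through adipose tissue and liver, and the difference rests on dim muscle signals (mean 45.9, under the limit of 153.5). Its effect was lower in adipose tissue than in muscle by -1.08 ± 0.28 and lower in liver than in muscle by -1.33 ± 0.28, and adipose tissue and liver differed by 0.25 ± 0.28.

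In adipose tissue Tap2 had 254.1 at the lowest, 289.6 at the median and 346.4 at the highest over ligand arrays, against 431.3, 303.2 and 340.2 on obese arrays. In liver it had 193.8, 241.8 and 347.2 at these points, against 334.4, 419.1 and 337.4. In muscle it had 37.8, 35.1 and 104 under pioglitazone, 46.7, 30.4 and 34.3 under rosiglitazone, 117.6, 76.3 and 87.7 under troglitazone and 30.9, 28.6 and 39.4 under AG035029, against 20.4, 27.5 and 14 on obese and 39.5, 21.6 and 33.8 on lean arrays. All 12 ligand arrays of muscle lay above the obese ones, and 7 of them lay within the range of the lean arrays. These muscle signals are below the level at which probe sets were tested within muscle, and with no limit on signal the muscle difference alone was 0.81 and did not pass (adjusted p = 0.567).

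Likeness over the 18 adipose arrays was described by Pearson's r of log2 values, where the arrays share 6 groups and a spread that can move many genes at once. The genes most like Cd74 were Adam17 (0.934), Tmem176b (0.93), Elmo2 (0.927) and RT1-Db1 (0.92). Those most like Tap1 were Rnf213 (0.835), Spats2l (0.827), Tbc1d14 (0.81) and Cpe (0.809), and those most like Irf7 were Mx1 (0.777), Slfn4 (0.773), Oas1a (0.772) and RT1-S3 (0.763). Among the members themselves Tap1 and Irf9 had r = 0.813 over the 18 arrays and 0.474 after group means were removed, and Irf9 and Irf7 had 0.733 and 0.571. Tap2 and Psmb8 had 0.73 and 0.495, and Tap1 and Psmb8 had 0.726 and 0.767. Cd74 and Tap1 had 0.131. The 2 probe sets of B2m had 0.441 over the 18 adipose arrays and 0.319 after group means were removed.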

How the data were processed

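The deposited values were linear intensities, signals that the authors had computed with MAS5, per the submitters' processing notes (no version given); the trimmed mean (2% at each end) was 500.1 or 500.2 on every array, so no further scaling was applied. Signals were used as log2(signal + 20). In each tissue the 9519 probe sets whose mean signal was above the 40th percentile (153 in adipose tissue, 162.1 in liver, 153.5 in muscle) were tested with limma 3.58.1 in R 4.3.3, in 1 fit of 18 arrays that left 12 residual degrees of freedom. The Benjamini-Hochberg adjustment ran over all of them, with a threshold of 0.05. Tissue differences and lean levels came from a joint fit of 54 arrays and 11532 probe sets. A fold on this scale understates the change of dim probe sets, and the number of arrays limits the precision. The fits were tested on simulated data with known changes.

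Samples were grouped by tissue, genotype and ligand as labelled; 0 columns of values were left unused. The members and lists were chosen with earlier results of these data known. By rule, every member probe set was described, array values were given where it was called in obese minus lean or ligand mean minus obese or differed between tissues, up to 4 called genes per list, tissue and contrast were named by smallest adjusted p, and for Cd74, Tap1 and Irf7 the 4 most correlated genes. Array values of other probe sets, Stat2 and the list genes named in the contrast of ligand mean minus lean were added after their values were seen. Same-numbered arrays of different groups had mean correlations of 0.0192, 0.0034 and 0.00979 in adipose tissue, liver and muscle. By this measure over all probe sets the numbers did not pair arrays within a tissue. Arrays with the same number and condition had mean correlations of 0.0153 (adipose tissue and liver), 0.0046 (adipose tissue and muscle) and 0.00223 (liver and muscle). The labels used here do not say whether such arrays came from the same rats, and the joint fit took all arrays as independent. Alternatives covered the pseudocount, the filter, quantile normalization, median centring, array weights, the replicate block, fewer groups per fit and each array left out. No genome or protein table was used here.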

Additional observations from a re-analysis of the deposited data

Results flagged for a closer look

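The effect of the ligands on Tap2 (1368732_at), ligand mean minus untreated obese, differed between tissues (adjusted p = 0.00328, limma's F-test over the 3 tissues). It was -0.27 in adipose tissue and -0.53 in liver, neither past the threshold in its own tissue, and 0.81 in muscle, where signals of 14 to 117.6 lay below the level at which probe sets were tested. Tap2 entered the joint fit through adipose tissue and liver only, and the difference rests on these dim muscle values. It was not tested with the limit at the 60th percentile. The part of the adipocyte genes that were higher in treated muscle was not tested.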

How the results depend on the processing

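No call among the members changed direction under any alternative tried. Counts of called probe sets that moved by over 1.5 times were the following. For obese minus lean in adipose tissue, with 2, quantile normalization gave 4, array weights 5 and a fit of only the groups compared 1. For ligand mean minus obese in adipose tissue, with 2, no filter gave 1, array weights 5, and the fit with the replicate block 1; median centring gave 2 higher and 1 lower, against 1 and 1. Over the 4 single ligands in adipose tissue, with 5, the filter at the 60th percentile gave 8, array weights 12 and leaving out the 2 arrays in doubt 8, an alternative chosen after seeing the data, like those of the lean levels. For ligand mean minus lean array weights gave 1 in liver and 1 in muscle, with 0 each. Over the single ligands in muscle, with 2, array weights gave 1, the replicate block 1 and a fit of only the groups compared 0. The tissue difference under ligands, with 1, gave 0 at the 60th percentile, where Tap2 was not tested, and 2 with quantile normalization, which added Cd74. Leaving out each array gave 1 to 3 for obese minus lean and for ligand mean minus obese in adipose tissue, 4 to 9 over the single ligands in adipose tissue (9 without obese replicate 1, 8 without rosiglitazone replicate 2), 4 to 7 for ligand mean minus lean in adipose tissue, 0 to 1 for it in liver, 0 to 1 for ligand mean minus obese in muscle, 0 to 3 over the single ligands and 0 to 2 for the F-test in muscle, 1 to 2 for the tissue difference under ligands and 23 to 24 for lean levels (24, with all 10 probe sets counted in each pair of tissues), and 0 in the rest. Over all probe sets in adipose tissue the share of calls that were higher was 63.4% with median centring, against 43.7% without it, for ligand mean minus obese, and 60% against 40.6% for ligand mean minus lean. By their mean correlation, replicate numbers did not pair arrays within a tissue. The replicate block added calls for Irf7 in obese minus lean (adjusted p = 0.0412) and under pioglitazone (0.0274) and for Psmb8 under troglitazone (0.0461) in adipose tissue. It ended those for B2m in ligand mean minus obese in adipose tissue (0.052) and under pioglitazone in muscle (0.0682). The cause of these changes was not tested.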
